A study of Homo sapiens with 3 samples.

Results

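The genes described here are 9 genes of the p53 pathway, and the data are the peaks of RUNX2 and CBFB around them in SAOS2 cells. The p53 family was represented by TP63 and TP73, the inhibitors of p53 by MDM2 and MDM4, and the p53 response by CDKN1A, GADD45A, SESN1, ZMAT3 and RRM2B. A peak was assigned to a gene when any base of it lay within 25 kb of the gene body. The search found 3 of the 9941 RUNX2 peaks and 15 of the 27246 CBFB peaks, and the 9 genes are set against 20163 protein-coding genes. The measurement was ChIP-seq, the sequencing of DNA recovered with an antibody to a chromatin protein, and SAOS2 is a human osteosarcoma cell line that lacks p53. The cells were untreated, and 1 library was made with a custom RUNX2 antibody and 1 with a commercial CBFB antibody. A library of input DNA was not analysed here. There were no replicates, so no test was run, and every value describes these libraries of a single cell line.

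p53 is a transcription factor that stops the cell cycle or starts apoptosis when DNA is damaged. It binds a DNA element made of a pair of similar 10-base units, and its paralogs p63 and p73 recognise the same element. RUNX2 is the lineage transcription factor of bone and binds the core sequence TGTGGT, and CBFB is the partner that binds RUNX proteins and strengthens their hold on DNA without touching DNA itself. The study asked which genes RUNX2 and CBFB occupy in osteosarcoma cells that have lost p53. The files hold peaks and no RNA, so they do not show whether any of these genes was expressed.

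RUNX2 peaks lay near few of these genes and CBFB peaks near most of them, in lists of unequal length. RUNX2 peaks were found at SESN1, ZMAT3 and RRM2B, 3 of the 9 genes, and each of these genes had 1. Among all protein-coding genes, 36.0% had a RUNX2 peak within 25 kb, so the share of the 9 genes, 33.3%, was close to that of genes at large. CBFB peaks were found at 8 of the 9 genes, or 88.9%, against 62.2% of all protein-coding genes. SESN1, ZMAT3 and RRM2B had peaks of both lists, as had 35.1% of all protein-coding genes. TP73 had neither, as was the case for 36.9% of them. With the CBFB list shortened to its 9941 highest-scoring peaks, as many as the RUNX2 list holds, 4 of the 9 genes had a CBFB peak, against 34.6% of all protein-coding genes. TP63, MDM2, MDM4, CDKN1A and GADD45A had CBFB peaks and no RUNX2 peak, a class that held 27.1% of all protein-coding genes.

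Long genes offer more room for a peak, and the 9 genes ran from 3.13 kb (GADD45A) to 265.9 kb (TP63). When protein-coding genes were divided by length into 5 groups of equal size, the share with a RUNX2 peak rose from 26.1% in the shortest group to 49.0% in the longest. The share with a CBFB peak rose from 47.4% to 74.0%. Added over the 9 genes, the shares of their length groups came to 3.51 genes for RUNX2, where 3 were found, and to 5.90 genes for CBFB, where 8 were found.

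**Figure D1:**
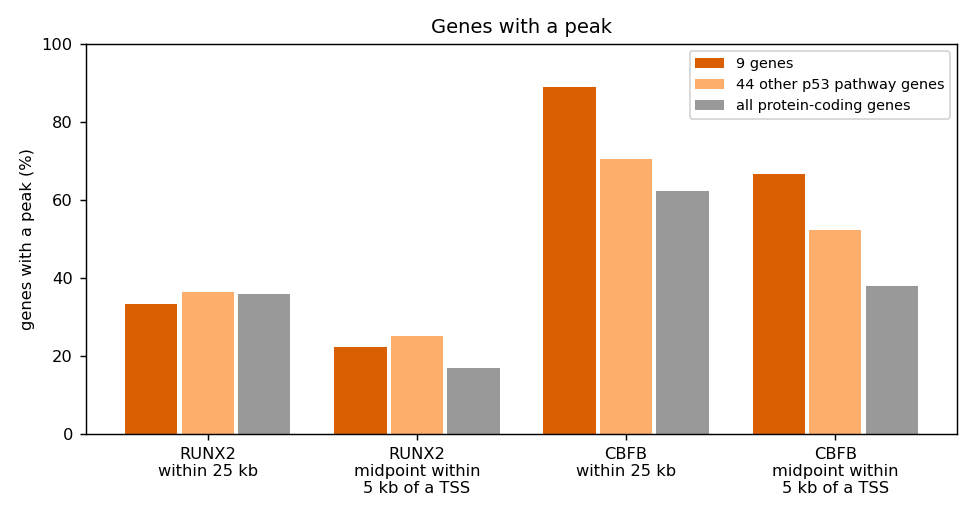
Percent of genes with a peak, for the 9 genes, for 44 other genes of the p53 pathway and for all protein-coding genes, with the antibody and the rule for a peak on the x axis. The bars for RUNX2 within 25 kb stand at 33.3%, 36.4% and 36.0%, and those for CBFB within 25 kb at 88.9%, 70.5% and 62.2%.

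The median distance from a gene body to the nearest RUNX2 peak was 40.1 kb for the 9 genes and 62.9 kb for all protein-coding genes. For CBFB these medians were 0.0 kb and 6.74 kb. Counted as peaks per Mb of gene body with 25 kb on either side, the order was the reverse. The 9 genes had 2.61 RUNX2 peaks per Mb, from 3 peaks, against 5.19 for all protein-coding genes. The CBFB values were 13.0 and 14.0. The genes without a RUNX2 peak differed in how far away the nearest one was. It was 39.0 kb from TP73, 40.1 kb from CDKN1A, 61.3 kb from GADD45A, 69.3 kb from MDM2, 100.05 kb from TP63 and 104.1 kb from MDM4. The peaks just inside and just outside the limit of 25 kb were CBFB peaks. The farthest assigned peak lay 23.2 kb from MDM2, and the nearest one left out lay 27.2 kb from TP73.

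**Figure D2:**
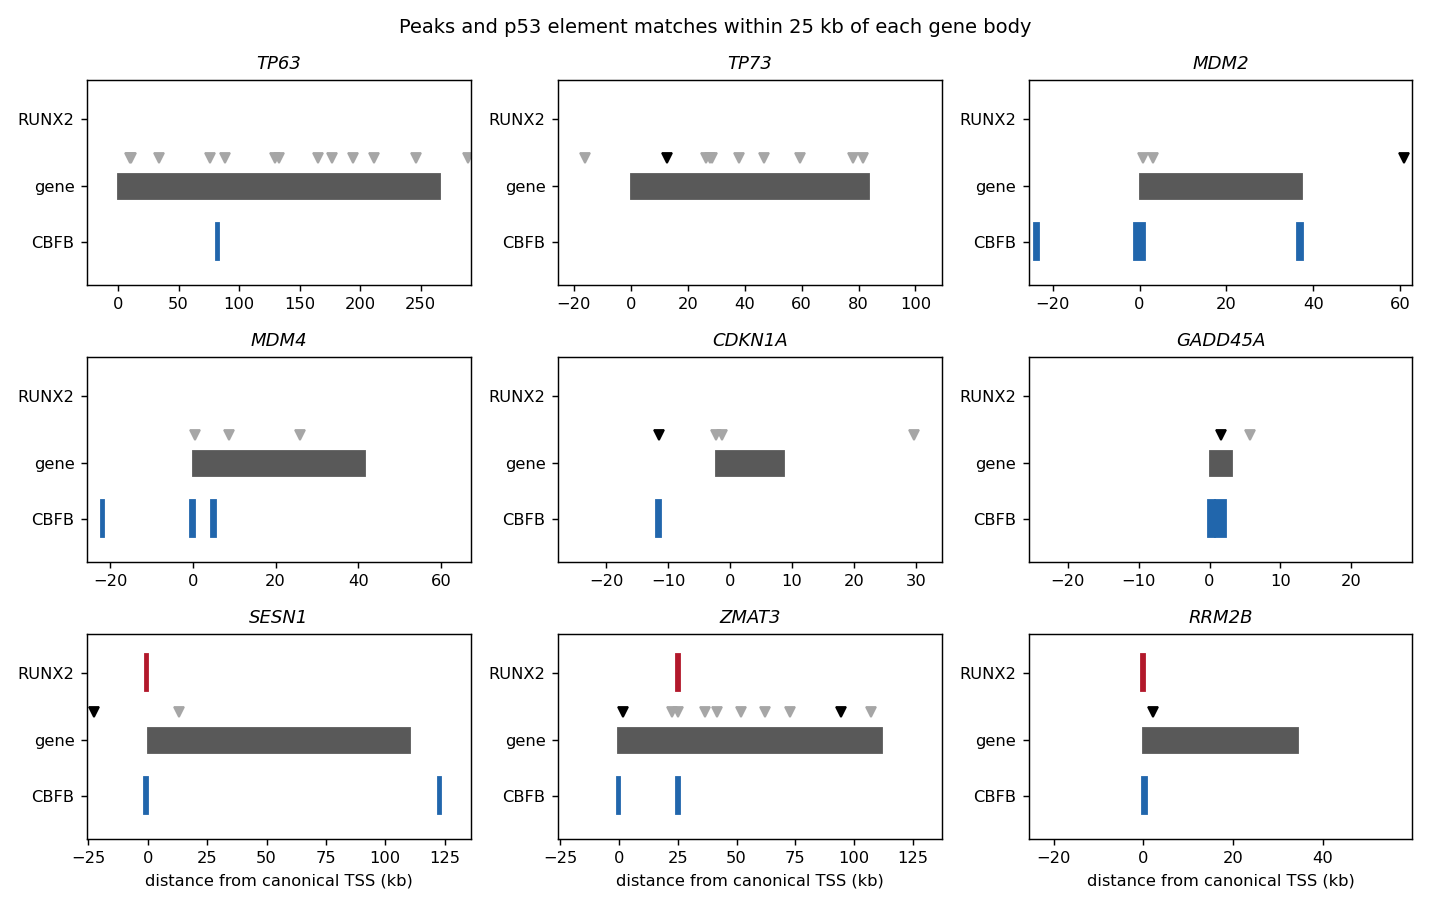
Peaks (RUNX2 in red, CBFB in blue), gene bodies (grey bars) and matches to the p53 element (triangles, black for at most 1 mismatch and grey for 2) against the distance from the canonical transcription start site (TSS) in kb, in the direction of transcription. Peaks narrower than 0.8% of a panel are widened to remain visible. RUNX2 peaks appear in the panels of SESN1, ZMAT3 and RRM2B, and TP73 has no peak of either list.

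The p53 family came first. TP63 encodes p63, which is needed for stratified epithelia, and has a first promoter for the full-length protein and an internal one for the form that lacks the amino-terminal activation domain. Its only peak was a CBFB peak in an intron (chr3:189430488-189431397). The score given to the peak by the authors' peak caller was 74.25, and 24.6% of the CBFB list lay at or below it. The midpoint lay 81765 bp downstream of the canonical start and 76505 bp upstream of the nearest internal start, so neither promoter held a peak. A RUNX core lay 98 bp from the midpoint, and is printed with 10 bases to either side and with the core in capitals:
TP63 intron, chr3:189430833-189430858, minus strand: ctgtctgtgcTGTGGTggtctgggag

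TP73 (chr1:3569080-3652765) encodes p73, which likewise exists in a full-length and a shortened form. It had no RUNX2 or CBFB peak within 25 kb. The nearest CBFB peak of a high score was 38.5 kb past its 3′ end (score 713, overlapping a RUNX2 peak of score 104.1), and the TSS nearest to it was that of SMIM1.

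The inhibitors of p53 carried CBFB peaks without RUNX2 peaks. MDM2 encodes the ubiquitin ligase that marks p53 for degradation. It had 3 CBFB peaks, and the one at its start (chr12:69200731-69203299) was the highest-scoring peak at any of the 6 genes without a RUNX2 peak. This peak had a score of 328, with 83.8% of the CBFB list at or below it. It was 2569 bp wide, wider than or as wide as 94.5% of CBFB peaks, and held 31 of the 36 annotated MDM2 transcript starts. These starts belong both to the upstream promoter and to the internal promoter that p53 uses. The other MDM2 peaks lay at the 3′ end, where MDM2 and CPM overlap (chr12:69238334-69239499, score 167), and in a UTR of the neighbouring gene SLC35E3 (chr12:69177534-69178722, score 109.6).

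The peak at the MDM2 start had no RUNX core in any of its bases. It held a match to the p53 element in the first intron, 756 bp downstream of the canonical start. The peak at the 3′ end held a core 14 bp from its midpoint, and the peak in SLC35E3 held 1 at 69 bp. The capitals mark the core or, in the element, the bases that match the p53 consensus:
MDM2 intron 1 p53 element, chr12:69202703-69202722, plus strand: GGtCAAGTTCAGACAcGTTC
MDM2 3′ end RUNX core, chr12:69238891-69238916, minus strand: attaacaactTGTGGTtaccatcata

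MDM4 encodes the relative of MDM2 that binds p53 and blocks its activity. Its 3 CBFB peaks were among the weakest found. The scores were 69.9 in a UTR of PIK3C2B (chr1:204463320-204464136), 65.8 at the MDM4 start (chr1:204484830-204486095) and 81.0 in an intron (chr1:204489978-204491026). All lay low in the CBFB list, with 17.4% to 29.5% of the list at or below them. The peak in the intron held 3 RUNX cores, of which 2 lay within 100 bp of the midpoint and began 8 bases apart. The first of them is in capitals and the second follows it in lower case:
MDM4 intron, chr1:204490441-204490466, plus strand: ggatagttctTGTGGTtttgtggttt

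Of the genes that p53 activates to stop the cell cycle, CDKN1A and GADD45A had CBFB peaks only. CDKN1A encodes p21, an inhibitor of cyclin-dependent kinases, and is the target most often used to read out p53 activity. No peak of either list touched the gene. Its only assigned peak was an intergenic CBFB peak 8.87 kb upstream of the gene body (chr6:36634537-36635365) with a score of 120.2, level with or above 49.7% of the list. This peak held no RUNX core. It held a match to the p53 element with 1 mismatch, while the element 2255 bp upstream of the canonical start lay 8861 bp from the nearest CBFB peak and 50972 bp from the nearest RUNX2 peak. Both elements are printed with the mismatched bases in lower case:
CDKN1A element inside the CBFB peak, chr6:36635035-36635054, plus strand: AGACAAGCCCGGGCAAGgCC
CDKN1A element outside any peak, chr6:36644226-36644245, plus strand: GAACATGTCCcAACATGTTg

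GADD45A encodes a small protein induced by DNA damage that takes part in growth arrest. At 3.13 kb it was the shortest of the 9 genes, and CBFB peaks covered most of it. The first (chr1:68150657-68151647, score 92.4) held the canonical start, and the second (chr1:68151710-68153203, score 76.2) had its midpoint in an intron, 1573 bp downstream. The second peak held 3 RUNX cores, and 1 of them lay 6 bp from the midpoint. A match to the p53 element with 1 mismatch began after a gap of 3 bases from that core. The core and the matching bases of the element are in capitals, and the bases between them and the mismatch are in lower case:
GADD45A intron, chr1:68152449-68152477, plus strand: TGTGGTacaGAACATGTCTAAGCATGCTg

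The 3 genes with RUNX2 peaks encode a regulator of metabolism under stress, an RNA-binding protein and an enzyme. SESN1 encodes sestrin 1, which restrains growth signalling through mTORC1. Its RUNX2 peak (chr6:109416198-109417366) had a score of 95.5, with 59.0% of the RUNX2 list at or below it, and began 149 bp upstream of the gene. The peak lay wholly inside a CBFB peak (chr6:109415932-109417439, score 193, level with or above 68.9% of the CBFB list). Its midpoint was 733 bp from the start of SESN1 and only 17 bp from a start of CEP57L1, a gene that is transcribed away from the same region, so the peak cannot be given to SESN1 alone. The second CBFB peak in the window (score 92.6) lay in an intron of ARMC2. The RUNX2 peak at SESN1 held 1 core, 165 bp from the midpoint:
SESN1 upstream, chr6:109416935-109416960, plus strand: aagcgcggggTGTGGTgggtgaggca

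ZMAT3 encodes a zinc finger protein that binds RNA and controls splicing. Its RUNX2 peak was the strongest of the 3. It lay in an intron (chr3:178763909-178765074), 25105 bp downstream of the canonical start, with a score of 250.01 and rank 617 of the 9941 RUNX2 peaks. It lay wholly inside a CBFB peak (chr3:178763558-178765479) with a score of 993 and rank 616 of the 27246 CBFB peaks. The midpoints were 27 bp apart. The second CBFB peak at ZMAT3 (chr3:178789285-178790239) held the canonical start, had a score of 98.3 and overlapped no RUNX2 peak. Of the 9 genes, ZMAT3 was thus the one where the strong, shared site was inside the gene and the weak CBFB site was at its start. The intronic RUNX2 peak held 1 core, 109 bp from the midpoint. A match to the p53 element without a mismatch lay in the first intron, 1290 bp from the CBFB peak at the start and in no peak:
ZMAT3 intron RUNX core, chr3:178764371-178764396, plus strand: ctgggaggctTGTGGTctggggcaag
ZMAT3 p53 element, chr3:178787976-178787995, minus strand: AAACAAGTCCAGACATGCCT

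RRM2B encodes the subunit of ribonucleotide reductase that supplies nucleotides for DNA repair in resting cells. Its RUNX2 peak (chr8:103250754-103251601) sat on the start, with the midpoint 11 bp downstream of the canonical TSS, and was the weakest of the 3. Its score was 70.35, with 36.0% of the RUNX2 list at or below it. The CBFB peak there (chr8:103250444-103251592) had a score of 197, level with or above 69.6% of the CBFB list, and shared 839 bp with the RUNX2 peak. Neither peak held a RUNX core. RRM2B was the only one of the 9 genes whose canonical start lay inside a RUNX2 peak, while 7.48% of the 19540 protein-coding genes with a canonical transcript had such a peak.

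**Figure D3:**
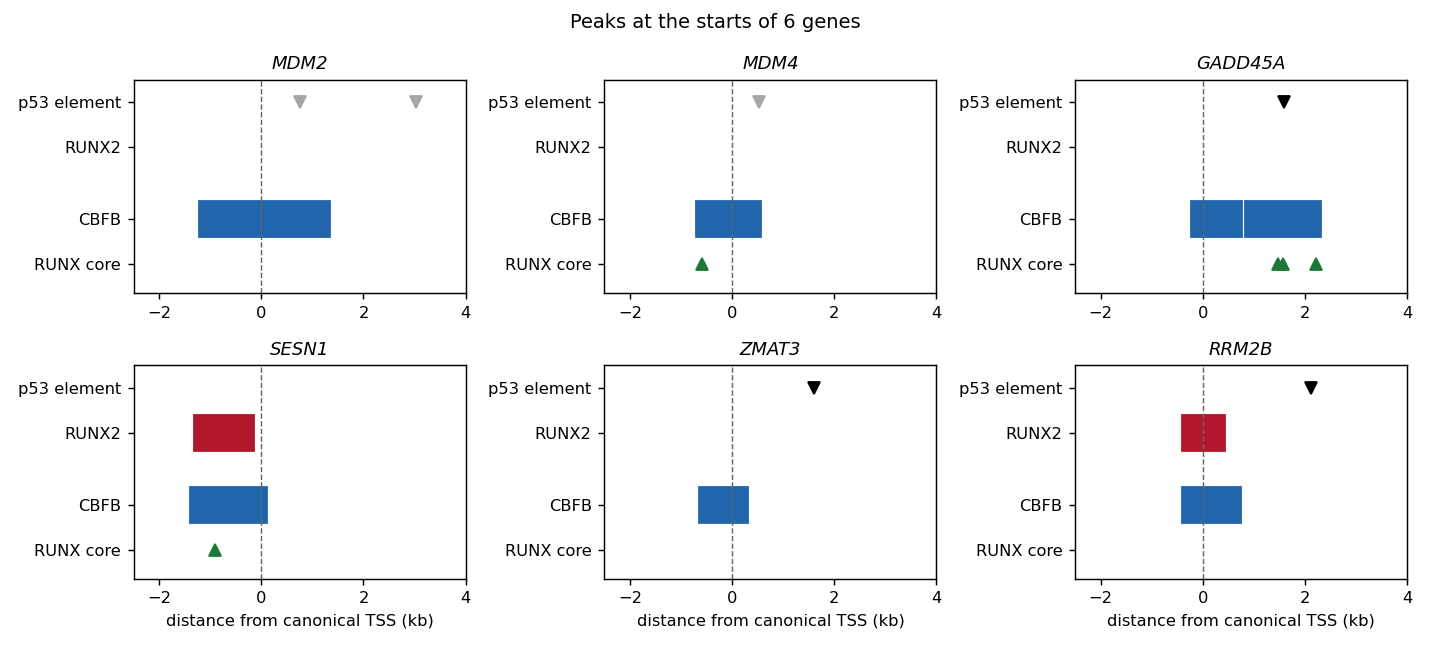
RUNX2 peaks (red), CBFB peaks (blue), RUNX cores inside peaks (green triangles) and p53 elements (black for at most 1 mismatch, grey for 2) against the distance from the canonical TSS in kb at the 6 genes whose start lay inside a CBFB peak. RUNX2 peaks are seen at SESN1 and RRM2B. A p53 element lies inside the CBFB peak at MDM2, MDM4 and GADD45A. Another element at MDM2 and those at ZMAT3 and RRM2B lie outside it.

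CBFB peaks were common at the starts of these genes. The canonical start lay inside a CBFB peak at MDM2, MDM4, GADD45A, SESN1, ZMAT3 and RRM2B, 6 of the 9 genes, against 20.9% of protein-coding genes with a canonical transcript. With a looser rule, a midpoint within 5 kb of any annotated start, the same 6 genes were counted, or 66.7%. The share was 37.9% for all protein-coding genes and 52.3% for 44 other genes of the p53 pathway. For RUNX2 the looser rule counted SESN1 and RRM2B, 22.2%, against 16.8%. Of the 6 CBFB peaks over a start, 2 overlapped a RUNX2 peak. Among the 3656 CBFB peaks in the whole list that held the canonical start of a protein-coding gene, 37.0% did.

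All 3 RUNX2 peaks overlapped a CBFB peak, as 94.2% of the whole RUNX2 list did. The reverse was less frequent, since RUNX2 peaks met 3 of the 15 CBFB peaks, or 20.0% (exact Clopper-Pearson 95% interval 4.33 to 48.1, counting error only), against 33.8% of the whole CBFB list. Among the 9941 highest-scoring CBFB peaks, 4 lay near these genes and 3 of them, or 75.0%, overlapped a RUNX2 peak. High-scoring CBFB peaks of the whole list often did so too, at 44.9% and 84.3% in the upper score groups given below. The CBFB peak at the MDM2 3′ end, rank 9962 and without a RUNX2 peak, fell just short of this cut. The CBFB peaks at these genes scored low. Their median score was 98.3, against 121 in the list, and 5 of the 15 exceeded the median of the list. Overlap with RUNX2 rises with the CBFB score, and in 5 equal score groups of the list, from the lowest to the highest, the share with a RUNX2 peak was 5.76%, 11.6%, 22.4%, 44.9% and 84.3%. Added over the 15 peaks, the shares of their score groups came to 4.35 peaks, where 3 were found.

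**Figure D4:**
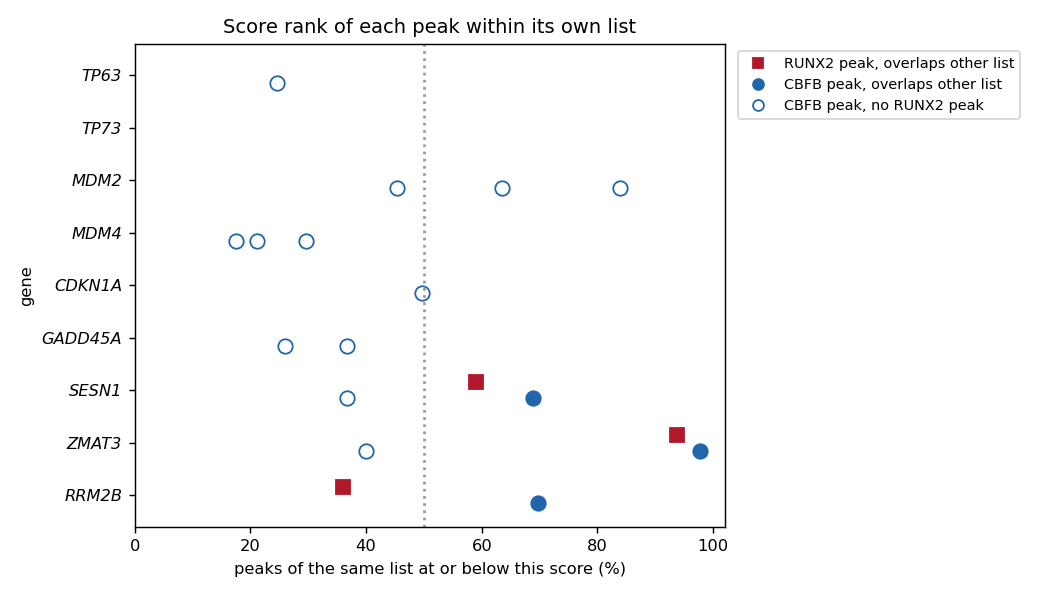
Percent of the peaks of the same list with a score at or below that of each peak, by gene, with filled symbols for peaks that overlap a peak of the other list. The dotted line marks the middle of each list, and the filled CBFB symbols at SESN1, ZMAT3 and RRM2B lie to the right of it at 68.9%, 97.7% and 69.6%.

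The CBFB peak at the MDM2 start had the highest score of the CBFB peaks here without a RUNX2 peak. Of the 1001 CBFB peaks within 500 ranks of it, itself included, 73.5% overlapped a RUNX2 peak, and it did not. The nearest RUNX2 peak was 105342 bp away. For the CBFB peak in the ZMAT3 intron this share was 98.5%, for that at RRM2B 48.3% and for that at SESN1 46.1%. For the other CBFB peaks without a RUNX2 peak the share ran from 6.89% to 33.6%, so that most of their rank neighbours had no RUNX2 peak either. These shares take no account of position. Of all CBFB peaks over a canonical start, as the MDM2 peak is, 37.0% overlapped a RUNX2 peak at any score. Whether the missing RUNX2 peaks fell below the calling limit was not tested, as the lists hold no read counts and the depth of the libraries is unknown.

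**Figure D5:**
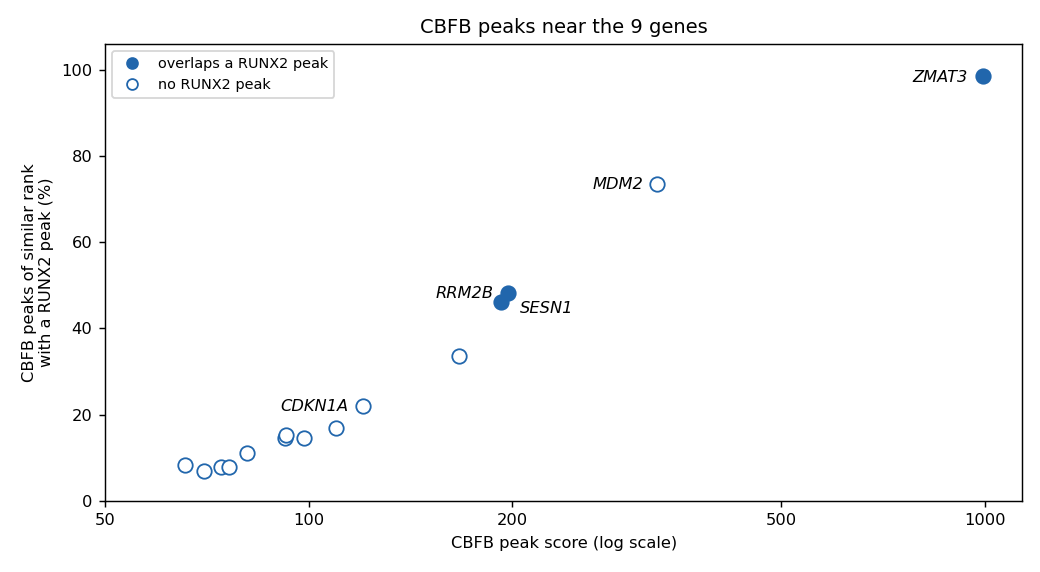
Percent of the CBFB peaks within 500 ranks that overlap a RUNX2 peak against the CBFB score (log scale) for the 15 CBFB peaks near the 9 genes. Filled points overlap a RUNX2 peak, and the open point at 73.5% is the peak at the MDM2 start.

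The RUNX core was found near the midpoint of the CBFB peaks about as often as in the whole CBFB list. Within 100 bp of the midpoint, TGTGGT or its complement on either strand was present in 6 of the 15 CBFB peaks, 40.0% (16.3 to 67.7), against 41.6% of all CBFB peaks. None of the 3 RUNX2 peaks held it there (0.0%, exact interval 0.0 to 70.8), against 43.2% of all RUNX2 peaks, and 2 of them held it elsewhere in the peak. Over whole peaks, 9 of the 15 CBFB peaks held a core, or 60.0% (32.3 to 83.7), against 80.9% of the CBFB list, and 78.1% of the RUNX2 list did. Among these 15 CBFB peaks the position of the core varied with place. None of the 6 peaks over a canonical start of the 9 genes had a core within 100 bp of the midpoint. Of the 9 other peaks, 6 did. The peaks over a start of the 9 genes were also richer in G and C, with a median of 60.7% (53.4 to 68.8) against 46.4% (38.3 to 70.1). The value of 70.1% was that of the peak in the PIK3C2B UTR, which lay over a start of PIK3C2B and held no core. The same split is not given for the whole CBFB list, so it cannot be called particular to these genes. It was noticed in the data and was not tested.

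Matches to the p53 element were then placed against the peaks, since these genes are defined by p53. The element was searched for as a pair of abutting 10-base units with at most 2 mismatches in 20 bases. The windows of the 9 genes held 48 matches, or 4.17 per 100 kb, against 2.88 per 100 kb over the whole genome sequence. There were 13 at TP63, 10 at TP73 and 10 at ZMAT3. Of the 48 matches, 5 lay inside a CBFB peak, 1 each at MDM2, MDM4, CDKN1A, GADD45A and ZMAT3, and 1 of these 5 also lay inside a RUNX2 peak, the intronic one at ZMAT3. As a share of peaks, 33.3% of the 15 CBFB peaks (11.8 to 61.6) held a match, against 3.87% of all CBFB peaks, and 1 of the 3 RUNX2 peaks did, against 3.13% of all RUNX2 peaks. With at most 1 mismatch, a setting chosen after seeing the data, 2 of the 15 peaks held a match, those at CDKN1A and GADD45A, against 0.382% of all CBFB peaks. None of the 3 RUNX2 peaks did, against 0.342% of the RUNX2 list. Several of the 9 genes became known as p53 targets through such elements near their starts, so this share is no independent finding. The match is to letters only, and p53 is absent from these cells.

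Sites of other transcription factors were also counted, on both strands of whole peaks. The AP-1 sequence TGANTCA, bound by FOS and JUN proteins, was present in 3 of the 15 CBFB peaks, against 42.1% of all CBFB peaks. These were the peak at the MDM2 start and that in the GADD45A intron, with 2 copies each, and the peak in the ZMAT3 intron, with 1. The RUNX2 peak in the ZMAT3 intron held the same copy, and 37.9% of all RUNX2 peaks held 1 or more. The ETS sequence CCGGAAG was present in 4 of the 15 CBFB peaks, against 10.4% of all CBFB peaks. These were the peak at the MDM4 start with 2 copies, both GADD45A peaks with 1 each and the peak at the RRM2B start with 1. The RUNX2 peak at RRM2B held 1 as well, against 9.16% of all RUNX2 peaks.

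The wider p53 pathway resembled other genes in its share with a RUNX2 peak within 25 kb. In lists written from textbook knowledge, 44 other genes of the pathway were counted. RUNX2 peaks lay within 25 kb of 16 of them, 36.4%, and CBFB peaks of 31, or 70.5%, against 36.0% and 62.2% of all protein-coding genes. The lists by function also hold those of the 9 genes that belong to them. Among 16 apoptosis targets, 7 had a RUNX2 peak (PHLDA3, FAS, TRIAP1, RPS27L, PMAIP1, BBC3 and BAX), or 43.8%, and 10 had a CBFB peak, or 62.5%, which is close to the share of all protein-coding genes. Of the 9 cell cycle arrest targets, which include CDKN1A, GADD45A and ZMAT3, 3 had a RUNX2 peak and 7 had a CBFB peak. All 4 genes of DNA repair and nucleotide supply, with RRM2B among them, had a CBFB peak, and XPC, POLH and RRM2B had a RUNX2 peak. Among 11 regulators of the p53 protein, which include MDM2 and MDM4, 3 had a RUNX2 peak and 9 had a CBFB peak. Of the 10 targets in metabolism, oxidative stress and autophagy, 3 had a RUNX2 peak (SESN1, SESN2 and SPATA18) and 8 had a CBFB peak.

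High-scoring RUNX2 peaks near the 44 genes could be nearer to other genes. The peak assigned to RPS27L (score 427) had its nearest start at LACTB, and that assigned to POLH (score 186) had its nearest start at MAD2L1BP. Among the apoptosis targets, the highest-scoring RUNX2 peaks assigned to BAX and TRIAP1 had their nearest starts at FTL and SRSF9. TRIAP1 also had a RUNX2 peak near its own start. Among 6 paralogs of the 9 genes outside the p53 response, 3 had a RUNX2 peak and 5 had a CBFB peak, in a list too short to set against the shares of all protein-coding genes (36.0% and 62.2%). GADD45G, a relative of GADD45A, had 2 RUNX2 peaks with a highest score of 202, and GADD45B had 3. CDKN1B, which encodes the cell cycle inhibitor p27, had 4 RUNX2 and 7 CBFB peaks, while CDKN1A had 0 RUNX2 peaks and 1 CBFB peak. The highest-scoring RUNX2 peak assigned to CDKN1B (score 90.5) lay in an intron of GPR19 and had its nearest start there. CDKN1C and SESN3 had 2 CBFB peaks each and no RUNX2 peak, and RRM2 had no peak of either list, while its relative RRM2B had both. SESN2 had a RUNX2 peak over its start (score 128), as SESN1 had near its own.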

How the data were processed

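SAOS2 cells gave 3 samples, RUNX2 ChIP, CBFB ChIP and input, and peak lists of the ChIP libraries were used. The authors called peaks with MACS, and the submitters' processing notes name MACS 1.4.1, CASAVA 1.8.2 and hg19. The aligner, the calling limit and whether peaks were called against the input are not given in the sources used here. The deposited value of each peak is a score, read here as -10 times log10 of its p-value from the peak names and the range of 50 to 3100. It depends on depth, which is unknown, so scores were ranked within a list and not compared between lists.

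The 9 genes and the gene lists were chosen with earlier results of these data known. Gene models came from GENCODE release 44, lifted to GRCh37, and sequence from the GRCh37 genome, on which 0 peaks ran past a chromosome end. Coordinates count from 1 in hg19 (GRCh37). Peaks overlapped when they shared at least 1 bp. Peaks on other contigs (13 RUNX2 and 42 CBFB) were left out where annotation or sequence was used. All peaks of the 9 genes were described, and of the other pathway genes those among the 3 with the highest RUNX2 score that can be named. Some results under this rule are not reported here. Relatives of the 9 genes were named after their values were seen, as were the nearest starts given for BAX and TRIAP1. With 1 library per antibody no test was run. The steps were tested on simulated lists. Alternatives covered reach, midpoint, gene body, score limit, list length, overlap, promoter width and motif. Sequences on chromosome 8 are not shown. Analyses used Python 3.11.15, numpy 2.4.6, pandas 2.3.3, scipy 1.17.1, pysam 0.24.0 and matplotlib 3.10.9.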

Additional observations from a re-analysis of the deposited data

How the results depend on the processing

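Of 62 recomputed values, 51 stayed within 1.5 times the count or within the interval of the share, and 11 moved. For shares of the 3 RUNX2 peaks the intervals were so wide that few changes could count as moved. Their share with a RUNX core went from 0.0% near the midpoint to 66.7% over whole peaks and still lay within the interval (0.0 to 70.8). With a reach of 50 kb, 5 genes had a RUNX2 peak and 5 RUNX2 peaks were assigned, TP73 and CDKN1A being added. At this reach 46.0% of all protein-coding genes had a RUNX2 peak. With scores of at least 100, 1 gene kept 1 RUNX2 peak (ZMAT3), and 5 genes had 7 CBFB peaks. At this limit 48.2% of all protein-coding genes had a CBFB peak. With the CBFB list shortened to as many top peaks as the RUNX2 list, 4 genes had 4 CBFB peaks, and 75.0% of these overlapped a RUNX2 peak. In the upper score groups of the whole CBFB list, 44.9% and 84.3% of the peaks did. The reach of 50 kb enlarged the window, and the score limit and the shortened list kept fewer, higher-scoring peaks. The background moved in 2 settings, to 3514 protein-coding genes with a RUNX2 peak (17.4%) at scores of at least 100 and to 6968 with a CBFB peak (34.6%) in the shortened list. When a peak had to lie in one of the 9 genes or nearest to its start, 2 RUNX2 peaks (ZMAT3, RRM2B) and 11 CBFB peaks were left.

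No paired analysis was possible because the RUNX2 and CBFB lists came from 1 library each, and for the same reason none was left out in turn.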

Other observations

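CpG pairs, counted over whole peaks, varied with the position of these CBFB peaks. The 6 peaks over a canonical start of the 9 genes held 62 to 152 pairs, with the most in the wide peak at MDM2. The 9 other peaks held 2 to 74, and the 74 were in the peak over a start of PIK3C2B. Peak widths differ, no such counts are given for the whole CBFB list, and this was not tested.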
